A study of Homo sapiens with 4 samples.

Results

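The regions described here are open chromatin regions of LNCaP cells that were listed as 1 peak under one condition and as several peaks under the other. A split region is a peak of the vehicle list, narrower than 1000 bp, that overlapped 2 or more peaks of the GSK2879552 list by at least 1 bp. A merged region is a peak of the GSK2879552 list, narrower than 1000 bp, that overlapped 2 or more vehicle peaks in the same way. On chromosomes 1 to 22 there were 4271 split and 956 merged regions, 5227 in all, of 358286 peaks in both lists. The rule used the positions of the peaks in both lists, so the numbers of split and merged regions and the tags at them are descriptions, and no test is given for them. Peaks that overlap a split or merged region are called its partners, and the single peak is called the wide region.

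LNCaP cells are a line of human prostate cancer whose growth depends on androgen. GSK2879552 blocks LSD1 (KDM1A), an enzyme that demethylates histones. Vehicle cells and GSK2879552 cells are each known from 1 peak list, which stands for 2 lanes that the labels call technical replicates. The labels give GSK2879552 at 50 µM for 4 hours in RPMI1640 with 5% CSS, and 10% FBS for maintaining the cells. All 4 samples carry this treatment text, and their group comes from the agent label. With 1 library per condition there is no replicate check and no test between conditions was possible. The values compare these libraries, and intervals beside shares and ratios are exact 95% intervals for counting error only. A range in parentheses after a median is the interquartile range, unless it is called an exact interval.

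ATAC-seq marks DNA that a transposase can reach. Active promoters and enhancers are usually reached over short stretches, while DNA wound on a nucleosome is cut less, so one regulatory element can carry more than one summit with a dip between them. LSD1 takes methyl groups from histone tails and acts with CoREST and histone deacetylases at many enhancers. A peak caller lists a stretch as 1 peak while its tags stay above a limit, and it closes short dips. In the vehicle list no 2 neighbouring peaks of chromosomes 1 to 22 lay closer than 50 bp, and in the GSK2879552 list none lay closer than 51 bp. No peak of either list was narrower than 100 bp. The lowest summit listed had 8 tags in the vehicle list and 9 tags in the GSK2879552 list. Where a dip divided 1 stretch, a split or merged region thus shows on which side of these limits the dip fell. The number of tags inside a dip is not given by the lists. A member can also arise where only the edge of a neighbouring peak reached into the wide region, since 1 bp of overlap is enough.

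Single regions show the forms that both classes took. The split region with the highest −log10 p lay on chromosome 12, 25801386 to 25802022 (hg19, 1-based, as are all positions here), with 106 vehicle tags at its summit. With GSK2879552 it was listed as a peak of 378 bp with 87 tags and a peak of 100 bp with 13 tags, 51 bp apart. The main summit stayed in place, 7 bp away, and the second peak was of the smallest width listed. On chromosome 17, 18161199 to 18162140, a vehicle peak of 942 bp with 70 tags was listed as 4 GSK2879552 peaks. Their summits held 49, 67, 37 and 42 tags from left to right, so the lowest had more than 50% of the tags of the highest. This was the only region of either class with 4 partners, and it stood on a high local background of 17.7 vehicle tags. The longest gap in a split region, 484 bp, was on chromosome 14, 58437454 to 58438298. Its vehicle summit of 22 tags fell in the gap, between GSK2879552 peaks of 12 and 11 tags.

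Merged regions took the same forms with the conditions exchanged. The merged region with the highest −log10 p was on chromosome 15, 34393630 to 34394534, with 92 GSK2879552 tags. Vehicle peaks of 22 and 106 tags lay there, 116 bp apart. On chromosome 6, 170529657 to 170530221, a GSK2879552 peak with 47 tags overlapped 3 vehicle peaks with 19, 33 and 21 tags. The scaled ratio there was 1.21 (0.760 to 1.95), GSK2879552 over vehicle, an interval that includes 1. A joining of strong peaks was seen on chromosome 2, 86667792 to 86668644, where vehicle peaks of 81 and 84 tags, 59 bp apart, faced 1 GSK2879552 peak of 80 tags. The longest gap in a merged region was 437 bp, on chromosome 4, 45459046 to 45459673, between vehicle peaks of 10 and 11 tags. These 2 vehicle peaks stood within 3 tags of the lowest summit that the vehicle list holds.

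There were 4.47 times as many split as merged regions, from lists of unequal length. The 4271 split regions were 2.35% of the 182117 vehicle peaks under 1000 bp (2.28 to 2.42). The 956 merged regions were 0.614% of the 155759 GSK2879552 peaks under 1000 bp (0.576 to 0.654). Both are also the background shares of these calls, since the rule defines the call. Among peaks that overlapped any peak of the other list, the shares were 3.85% and 0.808%. Split regions outnumbered merged ones on all 22 chromosomes, from 2.57 split regions per merged region to 8.31. Nearly all members had exactly 2 partners, 4146 of the split and 940 of the merged regions. There were 3 partners in 124 split and 16 merged regions.

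Split and merged regions were wide for their lists. The median width was 593 bp for split regions (interquartile range 458 to 767), where all vehicle peaks under 1000 bp had 187 bp. Merged regions had a median of 443 bp (interquartile range 317 to 613) against 170 bp in the GSK2879552 list. A region needs room for 2 partners and a gap, or partners that reach past its edges, so a greater width follows from the rule. Within bins of width, the classes were alike among narrow peaks and apart among wide ones. From 200 to 299 bp, 0.402% of vehicle peaks were split and 0.465% of GSK2879552 peaks were merged. From 500 to 599 bp the shares were 15.4% (14.4 to 16.5) and 3.51% (2.92 to 4.18). From 900 to 999 bp they were 28.7% (26.4 to 31.0) and 4.18% (3.01 to 5.62). The split share rose in every bin of 100 bp, while the merged share stayed between 3.05% and 4.18% from 400 bp on.

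Among wide regions of equal width, those on low background and with few tags at the summit were split or merged more often. The background is the number of tags that the caller expected at the summit, and its lowest value is the genome-wide one, 2.31 tags for vehicle and 2.72 for GSK2879552. Of vehicle peaks of 600 to 699 bp at the genome-wide level, 51 of 128 were split, a share of 39.8% (31.3 to 48.9). On higher local background the share was 20.1% (18.6 to 21.5). For merged regions of that width the shares were 19.8% (11.7 to 30.1), from 16 of 81 peaks, and 2.97% (2.32 to 3.74). Of vehicle peaks of 600 to 799 bp, 42.1% were split where the summit had 20 to 39 tags (38.5 to 45.7), 31.3% where it had fewer (18.7 to 46.3, from 15 of 48), and 9.69% where it had 80 or more (8.29 to 11.2). Merged regions of 600 to 799 bp made up 27.3% of GSK2879552 peaks with under 20 tags (18.3 to 37.8), from 24 of 88, and 1.31% of those with 80 or more (0.681 to 2.29). Both classes had the higher share at the genome-wide level in the bins from 300 to 799 bp. For merged regions of 200 to 299 bp the order was turned, with 0.437% at the genome-wide level (0.321 to 0.580) and 0.479% above it (0.389 to 0.584). Over all widths the order was the reverse, since wide peaks are seldom at the lowest background. Only 13.6% of split regions stood at the genome-wide level, against 40.1% of all vehicle peaks under 1000 bp, and 24.6% of merged regions against 38.5%.

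**Figure D1:**
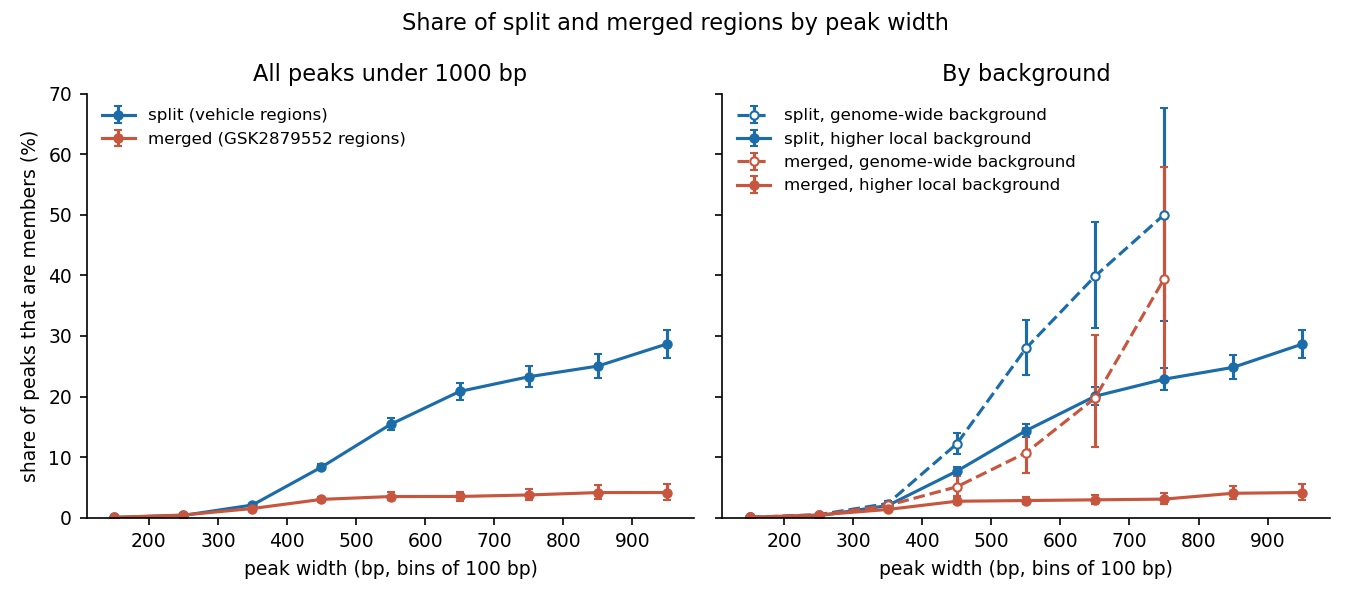
Share of peaks under 1000 bp that were split (vehicle list, blue) or merged (GSK2879552 list, red), in percent, by peak width in bins of 100 bp, with exact 95% intervals; the right panel separates peaks at the genome-wide background (open points, bins with at least 30 peaks) from those on higher local background (filled points). The split share climbs to 28.7% in the widest bin while the merged share stays at or below 4.18%.

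The gaps between partners were short, and shorter in merged regions. Where a region had several gaps the longest was used. Its median was 97 bp in split regions (interquartile range 71 to 132) and 77 bp in merged regions (61 to 106). Gaps of at most 100 bp, the width of the narrowest listed peak, made up 52.5% of split and 71.8% of merged regions. The fullest bin of 10 bp was 50 to 59 bp in both classes, directly above the closest distance listed, with 11.9% of split and 23.2% of merged regions. Gaps of at least 150 bp were present in 757 split regions, or 17.7% (16.6 to 18.9), and in 94 merged regions, or 9.83% (8.02 to 11.9). The 2 gap lengths are measured in different lists, the split gaps in the GSK2879552 list and the merged gaps in the vehicle list.

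The summits on both sides of the gap had the same median distance in both classes. The median distance was 323 bp for split (interquartile range 261 to 422) and 323 bp for merged regions (249 to 446). The fullest bin of 25 bp was 250 to 274 bp in split and 225 to 249 bp in merged regions. Distances from 200 bp to under 400 bp made up 65.7% of split and 59.6% of merged regions. The gap was a median of 31.0% of the summit distance in split regions and 25.1% in merged ones. With every peak at least 100 bp wide and gaps of at least 50 bp, short distances could hardly be listed. Whether these distances match spaced nucleosomes was not tested.

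**Figure D2:**
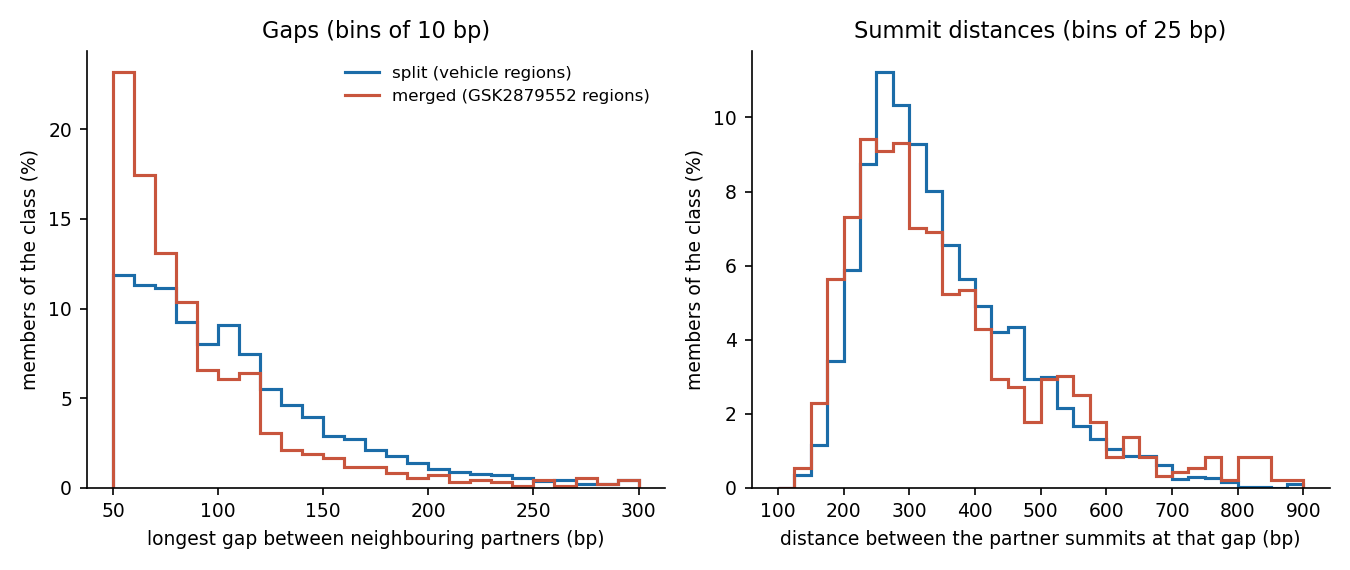
Distribution of the longest gap between neighbouring partners (left, bins of 10 bp, up to 300 bp) and of the distance between the partner summits at that gap (right, bins of 25 bp, up to 900 bp), as a percentage of each class. Gaps crowd near the lower limit of about 50 bp, more so in merged regions, and summit distances of both classes centre on 323 bp.

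The partners of a region differed widely in how alike their heights were. In split regions the highest partner had a median of 34 tags (interquartile range 22 to 52) and a width of 258 bp, and the second partner had 20 tags (15 to 26). In merged regions the medians were 31 tags (17 to 51.3) and 270 bp for the highest partner and 17 tags (13 to 28) for the second. The second partner reached a median of 65.4% of the highest in split and 68.1% in merged regions. It had at least 80% of the highest in 1268 split regions (29.7%) and 326 merged regions (34.1%), and under 50% in 1214 (28.4%) and 269 (28.1%). The partner with the fewest tags had a median width of 152 bp in split and 158 bp in merged regions. Its width was under 150 bp in 48.7% of split regions, where 39.8% of all GSK2879552 peaks were that narrow, and in 46.0% of merged regions, where 33.5% of all vehicle peaks were. The weakest partner by −log10 q stayed below 5, on the authors' scale within its own list, in 52.6% of split regions (51.1 to 54.1) and 56.4% of merged regions (53.2 to 59.6). Over the whole partner lists, 37.4% of GSK2879552 and 25.1% of vehicle peaks stayed below it. These whole-list shares count single peaks, whereas each region was counted by the weakest of several partners, which by itself favours a higher share. The shares under 150 bp likewise set the partner with the fewest tags beside all peaks. Whether partners were weak or narrow for their lists was therefore not tested.

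The regions with the highest second partners were blocks of 2 strong peaks. The split region with the highest second partner lay on chromosome 7, 139044840 to 139045519, where 92 vehicle tags faced GSK2879552 peaks of 84 and 92 tags, 52 bp apart. The GSK2879552 peak of 84 tags, 139044108 to 139044913, was itself the merged region with the highest second partner, since it overlapped vehicle peaks of 94 and 92 tags, also 52 bp apart. There the same block of open chromatin was listed as 2 peaks under each condition, with the division at another place. On chromosome 16, 67207698 to 67208541, a vehicle summit of 99 tags faced GSK2879552 peaks of 83 and 87 tags. A merged region on chromosome 9, 34665805 to 34666209, with 69 tags, overlapped vehicle peaks of 86 and 94 tags that were 50 bp apart. It reached only the edge of the vehicle peak of 86 tags, which ended at 34665813 and had its summit outside the region.

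Such moved divisions occurred in both classes in nearly equal number, since a division that moves makes a member of each. They made up a larger share of the merged class, which has fewer members. A partner that also overlapped another peak of the list that holds the wide region was present in 221 split regions (5.17%) and 225 merged regions (23.5%). The 5227 members fell into 5012 separate groups of overlapping peaks. Of these groups 4260 held a split region, 952 held a merged region, and 200 held both.

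Split regions often held all their partners, whereas the partners of merged regions mostly reached past the edges. All partners lay inside the wide region in 1983 split regions, or 46.4% (44.9 to 47.9), but in only 76 merged regions, or 7.95% (6.31 to 9.85). Partners reached past both edges in 532 split (12.5%) and 539 merged regions (56.4%). Pairs of exactly 1 vehicle and 1 GSK2879552 peak, called 1 to 1 pairs below, showed the same asymmetry. The GSK2879552 peak lay inside the vehicle peak in 59.5% of 104820 such pairs with a vehicle peak under 1000 bp. The vehicle peak lay inside the GSK2879552 peak in 6.39% of 105557 pairs with a GSK2879552 peak under 1000 bp. Partners covered a median of 71.7% of a split region (interquartile range 62.1 to 79.8) and 75.4% of a merged region (62.3 to 84.6). The widths of all partners, with their parts outside the region, added up to a median of 77.3% of the split region and 102% of the merged region. The interquartile range for merged regions was 85.3% to 141%. In the 1 to 1 pairs the median was 82.3% for the GSK2879552 peak over the vehicle peak. For the vehicle peak over the GSK2879552 peak it was 121.5%, so both classes lay below their pairs. These pairs were not matched for width, and a member leaves a gap of at least 50 bp uncovered by construction.

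The summit of the wide region usually lay in the highest partner. This held for 3606 split regions, or 84.4% (83.3 to 85.5), and 632 merged regions, or 66.1% (63.0 to 69.1). The summit lay in a lower partner in 507 split and 172 merged regions. It fell into a gap, which the other list did not count as open, in 139 split regions, or 3.25% (2.74 to 3.83), and 134 merged regions, or 14.0% (11.9 to 16.4). In the remaining 19 split and 18 merged regions it lay outside the span of the partners. The wide summit and the highest partner summit were within 50 bp of each other in 71.2% of split and 49.4% of merged regions, against 83.9% and 83.8% in the 1 to 1 pairs. Summits 200 bp or more apart occurred in 14.2% of split and 26.9% of merged regions, and in 1.22% and 1.25% of the 1 to 1 pairs. Members are wider than these pairs, so the share within 50 bp was also read at equal width. In the vehicle list split regions lay below the 1 to 1 pairs in every bin under 800 bp, at 67.5% against 82.5% from 300 to 399 bp and 70.9% against 79.8% from 500 to 599 bp. From 800 to 899 bp they had 80.6% against 79.7%. Merged regions lay below the pairs in every bin, at 52.9% against 77.0% from 500 to 599 bp and 63.8% against 77.4% from 800 to 899 bp.

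Over all widths together, summit tags at split regions were lower with GSK2879552 by the same median step as at regions listed as 1 peak in both lists. Tags were compared between the wide summit and the highest partner summit, and scaled by the ratio of the genome-wide backgrounds, 1.18. The higher GSK2879552 background was taken as greater depth of that library, which assumes an equal tag length in both libraries. Split regions had a median of 44 vehicle tags at the summit (interquartile range 29 to 63) and 34 GSK2879552 tags at the highest partner. As a log2 ratio, GSK2879552 over vehicle, the median was -0.56 (interquartile range -0.72 to -0.41), with an exact interval of -0.57 to -0.55. In the 1 to 1 pairs it was also -0.56 (interquartile range -0.75 to -0.36). By tags summed over both lists, split regions had medians of -0.39 under 40 tags, -0.64 from 40 to 80, -0.58 from 80 to 120 and -0.49 above. The 1 to 1 pairs had -0.40, -0.65, -0.58 and -0.48 in the same classes. At equal width the medians differed. Under 500 bp split regions lay above the pairs in every bin, at -0.23 against -0.61 from 200 to 299 bp. In that bin the compared summits were within 50 bp in 35.2% of split regions, against 85.8% of the pairs. The ratios of narrow split regions thus often set different places beside each other. The bin from 400 to 499 bp had -0.58 against -0.59. From 500 bp on split regions lay below the pairs in every bin, at -0.60 against -0.55 from 500 to 599 bp. Split regions of that width had a median of 39 vehicle tags, and the pairs had 55. The ratio also varied with tags, and width and tags were not held equal together. The widest bin, 900 to 999 bp, had -0.51 against -0.48. A ratio past 1.5-fold lower was found in 1907 split regions (44.7%), where the background over 1 to 1 pairs was 46.0%. Past 1.5-fold higher there were 30 split regions (0.702%), against a background of 0.175%. A ratio above 1 was found in 175 (4.10%), against 5.83%.

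Merged regions had fewer GSK2879552 than vehicle tags as well, by a smaller step. They held a median of 24.5 GSK2879552 tags at the summit (interquartile range 17 to 39.3) and 31 vehicle tags at the highest partner. Before any scaling, 638 of the 956 (66.7%) had fewer tags with GSK2879552, against 3807 of the 4271 split regions (89.1%). The unscaled share over 1 to 1 pairs was not taken, so the 66.7% is not read as particular to merged regions. The median log2 ratio after scaling was -0.45 (interquartile range -0.68 to -0.13), with an exact interval of -0.47 to -0.43. A ratio past 1.5-fold lower was found in 325 merged regions (34.0%), against 45.8% of the 1 to 1 pairs. Past 1.5-fold higher there were 11 (1.15%), against 0.173%. A ratio above 1 was found in 182 of the 956, against 5.79% of the 1 to 1 pairs. By summed tags the merged regions had medians of -0.13 under 40 tags, -0.54 from 40 to 80, -0.56 from 80 to 120 and -0.51 above, so the distance from the 1 to 1 pairs lay at the low end. Members were chosen by where tags passed the limit, so the higher ratio among low merged regions is a description only.

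The ratio differed with how partners lay. In the 76 merged regions that held all their partners the median log2 ratio was -0.01, with an exact interval of -0.17 to 0.10, and in the 880 others it was -0.46. In the 1983 split regions that held all their partners it was -0.57, and in the 2288 others -0.54. A GSK2879552 peak that holds all its vehicle partners is the wider call at both edges, so this choice can itself favour high ratios. The ratio of 1 to 1 pairs with the vehicle peak inside was not taken. The -0.01 is therefore not read as particular to merged regions. Where the wide summit fell into a gap the median was -0.10 in split and -0.23 in merged regions. Such a summit lies in no partner, so these ratios are of different places and not of 1 summit. In 208 split and 224 merged regions the highest partner summit lay outside the wide region, so that different places were compared. Without them the medians were -0.57 for 4063 split and -0.44 for 732 merged regions. Among all members, the compared summits were 200 bp or more apart in 605 split and 257 merged regions. Different places were thus also compared in a part of the regions kept. Most of the outlying ratios came from regions with the highest partner summit outside, except for the high ratios of merged regions. Of 43 split regions more than 1 above the class median on the log2 scale, 37 were among them, as were all 53 merged regions more than 1 below it. Of the 15 merged regions more than 1 above the median, 1 was.

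**Figure D3:**
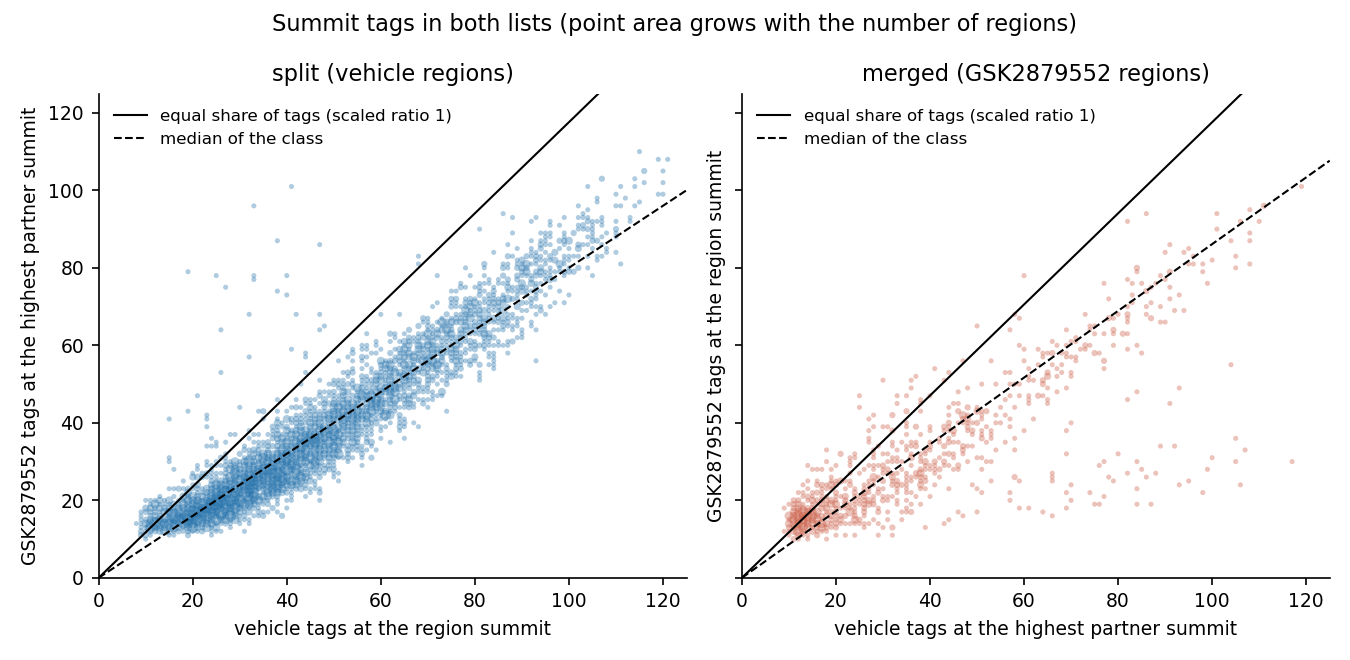
Tags at the highest vehicle summit (x axis) and the highest GSK2879552 summit (y axis) of each split region (left) and merged region (right); point area grows with the number of regions, the solid line marks an equal share of tags after scaling for depth and the dashed line the median of the class. Most points of both panels lie below the solid line, and the 53 merged regions more than 1 below the median on the log2 scale all have their highest partner summit outside the wide region.

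The lowest and highest ratios among members with at least 100 tags over both lists, 1431 split and 200 merged, had different forms. The lowest split ratio, 0.471 (0.305 to 0.719), was on chromosome 5, 136527975 to 136528483, with 65 vehicle tags and GSK2879552 peaks of 19 and 36 tags. Chromosome 17, 53919906 to 53920503, followed with 0.488 (0.320 to 0.734), from 68 vehicle tags and GSK2879552 peaks of 17 and 39 tags. In both, the wide summit lay in the higher partner, so the same summit is compared. The highest split ratio, 2.65 (1.67 to 4.35) on chromosome 5, 122848427 to 122848726, set 25 vehicle tags in a peak of 300 bp against a GSK2879552 peak of 1124 bp whose summit of 78 tags lay 931 bp away. That ratio is of neighbouring places and not of 1 summit. The same holds for the lowest merged ratio, 0.186 (0.107 to 0.308) on chromosome 16, 31519043 to 31519451, where summits of 19 and 87 tags were 478 bp apart. Extremes picked out of many regions owe a part of their size to counting error.

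The highest merged ratios lay in 2 places. They were 1.11 (0.753 to 1.63) on chromosome 10, 39079199 to 39079637, and 1.11 (0.780 to 1.57) on chromosome 16, 33866065 to 33866757. Chromosome 16, 33899300 to 33899694, followed with 1.01 (0.675 to 1.53). In all 3 the summits were at most 9 bp apart, so 1 summit was compared, with 50, 60 and 47 vehicle tags and 65, 78 and 56 GSK2879552 tags. All 3 intervals include 1. The chromosome 10 region ended less than 0.1 Mb before the longest stretch of that chromosome without a listed peak, 39154862 to 42355005. On chromosome 16 that stretch was 35281431 to 46386347.

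Within 5 Mb of the longest peak-free stretch of a chromosome, merging was somewhat more frequent and splitting was not. There 115 of 13806 GSK2879552 peaks under 1000 bp were merged, or 0.833% (0.688 to 0.999), and farther away 841 of 141953, or 0.592% (0.553 to 0.634). Split regions made up 2.34% of vehicle peaks near the stretch (348 of 14849) and 2.35% farther away. The median log2 ratio of merged regions was -0.23 near the stretch and -0.46 farther away, where 1 to 1 pairs had -0.50 and -0.56. On chromosomes 13, 14, 15 and 22 the longest stretch was under 0.5 Mb, so nearness to it means little there. Repeated sequence near such stretches was not tested as a part of this difference.

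Between chromosomes the share of split regions followed the widths of the peaks. It was highest on chromosome 22, 108 of 3245 peaks or 3.33% (2.74 to 4.00), and lowest on chromosome 13, 90 of 4884 or 1.84% (1.48 to 2.26). Peaks of at least 300 bp made up 29.1% of vehicle peaks under 1000 bp on chromosome 22 and 19.3% on chromosome 13. With the share of each width bin over all chromosomes applied to the widths of a chromosome, 106.5 split regions were obtained for chromosome 22 and 87.6 for chromosome 13, close to the counts. Chromosome 19 departed most. Its widths gave 214.6 split regions and 156 were found, a ratio of 0.727, and its widths gave 43.1 merged regions and 22 were found, a ratio of 0.511. Its peaks also stood on the highest median background, 4.83 vehicle tags and 5.38 GSK2879552 tags, and at equal width high background went with a lower share (above). The part of the background in this was not tested. Among merged regions the share ran from 0.460% on chromosome 22 (13 regions) to 0.958% on chromosome 21 (23 regions, 0.608 to 1.43), where the widths gave 13.5. The median log2 ratio of split regions lay between -0.62 on chromosome 10 and -0.51 on chromosome 19.

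**Figure D4:**
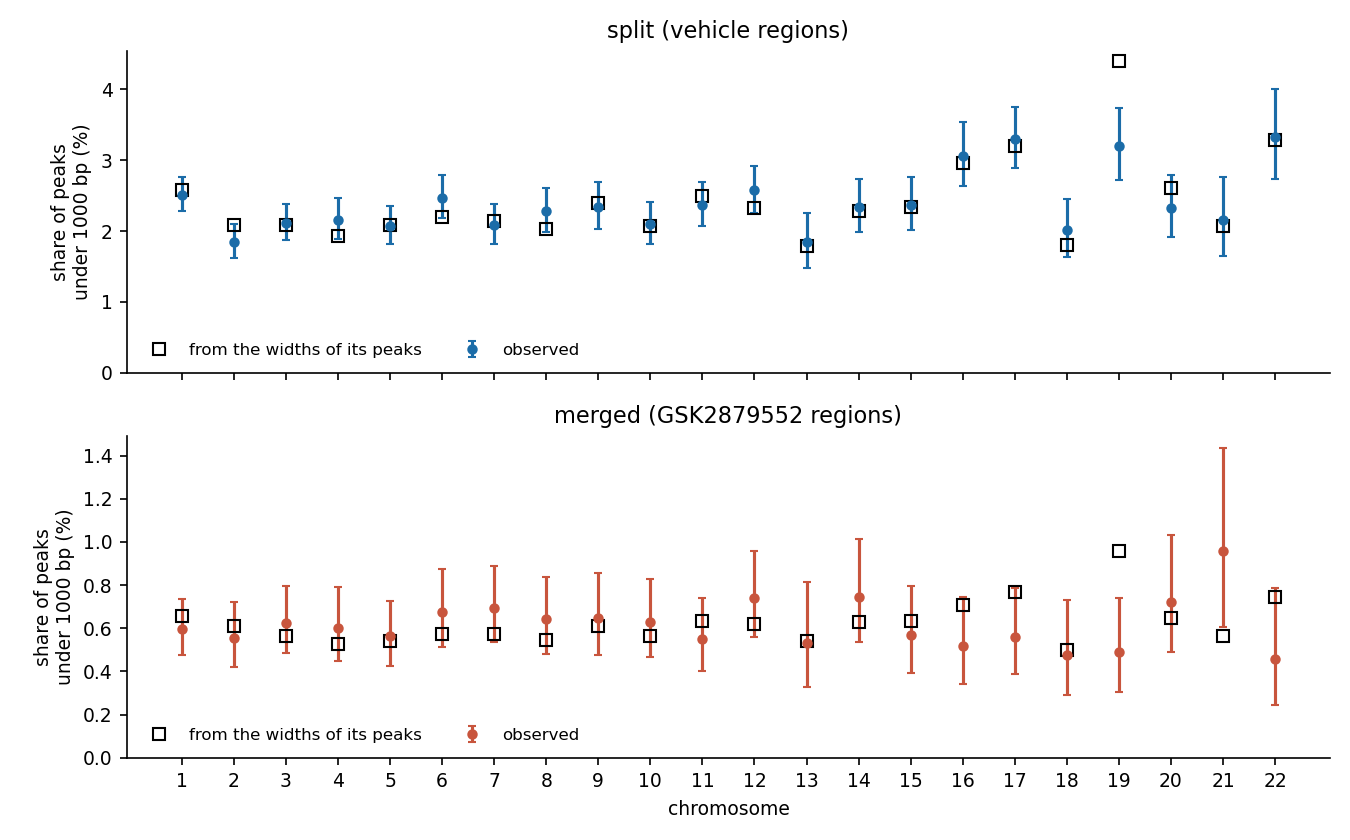
Share of peaks under 1000 bp that were split (top, vehicle list) or merged (bottom, GSK2879552 list) on chromosomes 1 to 22, in percent with exact 95% intervals; open squares are the shares that the widths of the chromosome's own peaks give at the all-chromosome rates. Chromosome 19 lies below its square in both panels, at 156 split regions against 214.6 and 22 merged regions against 43.1.

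Some members lay near each other. Another split region lay within 10 kb of 206 split regions, or 4.82%, and another merged region within 10 kb of 36 merged regions, or 3.77%. Of 2734 windows of 1 Mb with a vehicle peak under 1000 bp, 1885 held a split region, and 748 of the 2734 held a merged region. The fullest windows for split regions were chromosome 11 up to 1 Mb, with 11 among 124 peaks (8.87%), and chromosome 16, 30 to 31 Mb, with 10 among 94 peaks (10.6%), where the share over all chromosomes was 2.35%. For merged regions the fullest was chromosome 8, 86 to 87 Mb, with 9 among 101 peaks (8.91%), followed by chromosome 11, 118 to 119 Mb, with 6 among 112 (5.36%), where the share over all chromosomes was 0.614%. These windows were picked as the fullest of many, and whether members cluster was not tested.

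The limits of the rule cut through even distributions. Of vehicle peaks 950 to 999 bp wide, just inside the width limit, 217 of 713 (30.4%) were split, and just outside, from 1000 to 1049 bp, 209 of 630 (33.2%) overlapped 2 or more GSK2879552 peaks. For GSK2879552 peaks these counts were 21 of 451 (4.66%) and 17 of 336 (5.06%). Of all vehicle peaks of at least 1000 bp, 1593 of 3611 (44.1%) overlapped several GSK2879552 peaks, and of GSK2879552 peaks that wide 96 of 1527 (6.29%) overlapped several vehicle peaks. An overlap of at most 10 bp with 1 partner made 127 of the 4271 split and 105 of the 956 merged regions members. Another 64 vehicle and 67 GSK2879552 peaks would have become members had partners up to 10 bp away counted. Merged regions thus rested on such edges more often than split regions.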

How the data were processed

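ATAC-seq peak lists of LNCaP cells given vehicle or GSK2879552 were used, 1 list per condition, each named by the labels of 2 lanes. Per the submitters' processing notes, the tools were MACS2 2.1.2 (a peak caller), SAMtools 0.1.18 and BWA 0.7.2, and hg19 or GRCh37 the build. The sources used here do not give trimming, duplicate removal or a shift to the cut site. Each deposited row holds a −log10 p, a −log10 q, a score, a summit offset and a fold, the ratio of summit tags to background, each plus 1. The score was not used.

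Tags and background at each summit were recovered from the deposited fold and −log10 p. In both lists 100% of rows gave a whole number of tags, to within 0.001 of the printed −log10 p. The lowest background, 2.31 and 2.72 tags, was taken as proportional to depth, and total depth and tag length are not given. Tag recovery and the search for members were tested on simulated data. Overlaps, exact Clopper-Pearson and binomial intervals, and order-statistic intervals of medians treat peaks as independent. Named regions were, per class, the 3 highest by −log10 p, number of partners, gap and second partner, and the 3 lowest and highest ratios from 100 tags on. Not all of them are printed. Members, comparisons and rules were chosen with earlier results of these data known. Nearness to peak-free stretches and the windows were added after values were seen. No genome or annotation of hg19 was used here, so genes, motifs and sequences are not given. Python 3.11.15, NumPy 2.4.6, pandas 2.3.3, SciPy 1.17.1, NetworkX 3.6.1 and Matplotlib 3.10.9 were used.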

Additional observations from a re-analysis of the deposited data

Results flagged for a closer look

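Outside chromosomes 1 to 22, which the rule covers, split and merged regions under 1000 bp were found as well, in numbers above the 3 that a count of 0 allows. Chromosome X held 121 split regions, 2.46% of its vehicle peaks under 1000 bp (2.04 to 2.93), and 15 merged regions, 0.451% of its GSK2879552 peaks (0.253 to 0.743). Chromosome Y held 17 split regions, 1.45% of its vehicle peaks, and 7 merged regions, 0.781%. Unplaced contigs, random contigs and alternative haplotypes held 87 split regions, 3.33% (2.67 to 4.09), and 20 merged regions, 0.919% (0.562 to 1.42). Split regions were the larger class in all 3 places.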

How the results depend on the processing

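No paired analysis was possible because 1 library stood for each condition and its lanes were technical replicates, and for the same reason no replicate was left out. Split regions outnumbered merged ones under all 11 alternatives to the count, from 2.38 times as many among peaks under 500 bp to 26.1 times where all partners had to lie inside the region. The 3 alternatives on summits, gap length and nested partners, and those for the median gap, were chosen after seeing the data. Why values moved was not tested, but several alternatives keep fewer peaks or regions by construction. The 4271 split and 956 merged regions became 2060 and 380 where both lists were limited to a −log10 q of 5 or more, 1392 and 584 under 500 bp and 1445 and 342 when peaks at most 200 bp apart were joined. They became 2064 and 280 with a gap of at least 100 bp, and 1983 and 76 with all partners inside. Merged regions numbered 496 with at least 50% of each partner inside, where split regions numbered 3640, and 594 with lists of equal length, where split regions numbered 4179. The median log2 ratio of split regions, -0.56, was -0.57 with 50 bp of overlap, -0.57 with 50% of each partner inside, -0.53 with no width limit, -0.57 with near peaks joined, -0.57 with the highest partner summit inside and -0.57 with all partners inside. It was -0.32 with no scaling for depth and -0.60 with the background subtracted. That of merged regions, -0.45, was -0.41 with 50% of each partner inside, -0.53 with −log10 q of 5 or more, -0.52 with lists of equal length and -0.32 with near peaks joined. It was -0.22 with no scaling, -0.48 with the background subtracted, -0.23 with a gap of at least 100 bp and -0.0075 with all partners inside. Neither median rose above 0 in any alternative run. The median gap was 97 bp in split and 77 bp in merged regions, and 246 bp and 248.5 bp with near peaks joined, which removes all gaps up to 200 bp. The lists give no tags below 8 with vehicle and 9 with GSK2879552, so how deep a dip was cannot be seen.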
